A study of Mus musculus with 20 samples.

Results

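Hemidesmosome genes were followed through 12 RNA libraries of sorted cells from mouse embryonic back skin. The set holds 7 genes, Col17a1, Itgb4, Itga6, Itga3, Dst, Plec and Cd151, of the 23432 gene symbols in each count file. It was chosen by name, with earlier results of these data known. Epidermal cells were sorted by GFP and came from embryos labelled {delta}Np63 -GFP KI-Het at embryonic day 9 (E9; replicates 1, 2 and 4), the same genotype at E13 (3 libraries), and {delta}Np63 -GFP KI-KO at E13 (3 libraries). Dermal cells were sorted by CD140a from KI-Het embryos at E13 (3 libraries, which the sample titles call Ctrl). KI, Het and KO are used below as the labels write them. All 4 groups therefore carry a GFP knock-in at Trp63, which encodes the transcription factor p63, and no wild-type RNA library was analysed here. The sort for epidermis rests on GFP made from the altered gene itself. For epidermis ribosomal RNA was removed, for dermis poly(A) RNA was selected with oligo(dT), so tissue and library type cannot be told apart. The labels do not say whether replicates came from separate or pooled embryos, and the p-values below measure only the spread between these samples.

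Hemidesmosomes are the rivets that hold basal keratinocytes to the basement membrane. In the membrane, integrin α6β4 (the products of Itga6 and Itgb4) and collagen XVII (Col17a1) bind laminin-332 outside the cell. Inside, the plakins plectin (Plec) and the epithelial form of dystonin, also called BPAG1e or BP230 (Dst), tie them to keratin filaments. The tetraspanin CD151 (Cd151) associates with the laminin-binding integrins α6β4 and α3β1, whose α3 chain is the product of Itga3; α3β1 itself sits outside the hemidesmosome and links to actin. Loss of several of these proteins causes blistering of the skin, and p63 is the main transcription factor of stratified epithelium.

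RefSeq promoter windows (GRCm38.p6, 250 bases before to 50 after an annotated start) matched 4 of the 7 genes, with 1 window for Col17a1 and 2 each for Itga3, Dst and Cd151. Itgb4, Itga6 and Plec had none in the table. The windows of Col17a1 and Dst are shown because these genes fell steeply in KO epidermis, and that of Cd151 because its KO and Het libraries overlapped. Each is printed from 250 bases before the start through the first 25 transcribed bases, 5′ to 3′ on the gene's strand. Capitals mark a match to the p53-family half-site, the short element that p63 shares with p53.
Col17a1, chr19:47692018-47692292, minus strand: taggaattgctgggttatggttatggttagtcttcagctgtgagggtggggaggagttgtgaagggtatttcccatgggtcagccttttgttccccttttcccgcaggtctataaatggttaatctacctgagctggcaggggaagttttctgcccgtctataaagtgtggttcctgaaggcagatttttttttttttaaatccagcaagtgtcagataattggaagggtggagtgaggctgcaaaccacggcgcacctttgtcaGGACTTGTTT
Dst first start, chr1:34011345-34011619, plus strand: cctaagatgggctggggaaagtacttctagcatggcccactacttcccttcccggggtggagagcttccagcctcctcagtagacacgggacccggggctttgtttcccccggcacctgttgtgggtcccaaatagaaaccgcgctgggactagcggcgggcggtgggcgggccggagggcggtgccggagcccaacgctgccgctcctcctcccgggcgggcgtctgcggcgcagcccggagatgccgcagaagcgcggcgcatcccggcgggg
Dst second start, chr1:34160010-34160284, plus strand: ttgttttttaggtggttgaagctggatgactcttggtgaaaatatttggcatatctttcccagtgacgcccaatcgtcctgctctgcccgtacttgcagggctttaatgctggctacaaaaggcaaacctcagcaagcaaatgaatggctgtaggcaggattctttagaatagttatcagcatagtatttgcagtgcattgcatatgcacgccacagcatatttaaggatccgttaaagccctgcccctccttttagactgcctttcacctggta
Cd151 first start, chr7:141467112-141467386, plus strand: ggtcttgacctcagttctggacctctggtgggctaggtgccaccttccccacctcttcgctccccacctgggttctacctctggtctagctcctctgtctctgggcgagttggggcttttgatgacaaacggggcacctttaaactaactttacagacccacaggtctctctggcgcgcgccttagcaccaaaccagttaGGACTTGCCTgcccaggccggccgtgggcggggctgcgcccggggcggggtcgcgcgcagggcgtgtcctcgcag
Counting the first transcribed base as +1, the Col17a1 match, GGACTTGTTT, ran from +16 to +25, and the Cd151 match, GGACTTGCCT, from -50 to -41. No match was found in the other 5 windows, and 8.36% of all 32851 windows of the table held one. A pair of CATG cores with 6 bases between them, found in 0.712% of windows, was in none of the 7. The AP-1 motif TGANTCA, in 7.81% of windows, was in 1 window of Itga3, and the GC box GGGCGG, in 35.7%, was in both windows of Itga3 and in the first windows of Dst and Cd151. All motifs were searched on both strands. These matches are descriptions of letters and not evidence of binding, and their part in the changes of these genes was not tested.

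Levels are given in CPM, a library's count of a gene scaled to a common total, after TMM scaling of all 12 libraries. They serve to compare libraries for 1 gene and not genes with each other, since they were not divided by transcript length. Changes are log2 fold changes ± standard error from edgeR's quasi-likelihood test, with Benjamini-Hochberg adjusted p over all genes tested, and a gene is called at an adjusted p under 0.05. An epidermal library held 3373819 to 7777808 gene counts and a dermal library 16931664 to 33386872, and between 10765 (E13 Het replicate 1) and 16200 (KO replicate 2) genes had a count. Trp63 read 279, 219 and 122 CPM in the E9 Het libraries and 530.1, 613 and 457 CPM in the E13 Het libraries of epidermis. It read 22.9, 24.9 and 20.5 CPM in those of KO, and 2.11 CPM or less in each dermal one. It fell by 4.54 ± 0.28 on the log2 scale between KO and Het (edgeR adjusted p = 1.54e-06), in the direction of the labels. From E9 to E13 in Het it rose 2.57-fold (edgeR adjusted p = 0.00305). KO at E13 stood 9.04-fold below Het at E9 (edgeR adjusted p = 8.24e-06).

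Between KO and Het epidermis at E13, 5 of the 7 hemidesmosome genes fell and none rose. Col17a1 went from at least 208 CPM to 0 in all but 1 KO library, Dst fell 4.96-fold, Itgb4 fell 5.44-fold, and Itga6 and Itga3 fell 1.94-fold and 1.81-fold. Plec and Cd151 did not pass the test. Of all 13052 genes tested in that comparison, 2.2% were called, 1.36% lower and 0.835% higher. The KO libraries lay below every Het library for 6 of the 7 genes, all but Cd151, while over all genes 9.9% were lower without overlap, 10.3% higher, and 20.2% did not overlap in either direction. The median log2 change of the 7 was -0.96 against 0.03 over all genes tested.

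**Figure D1:**
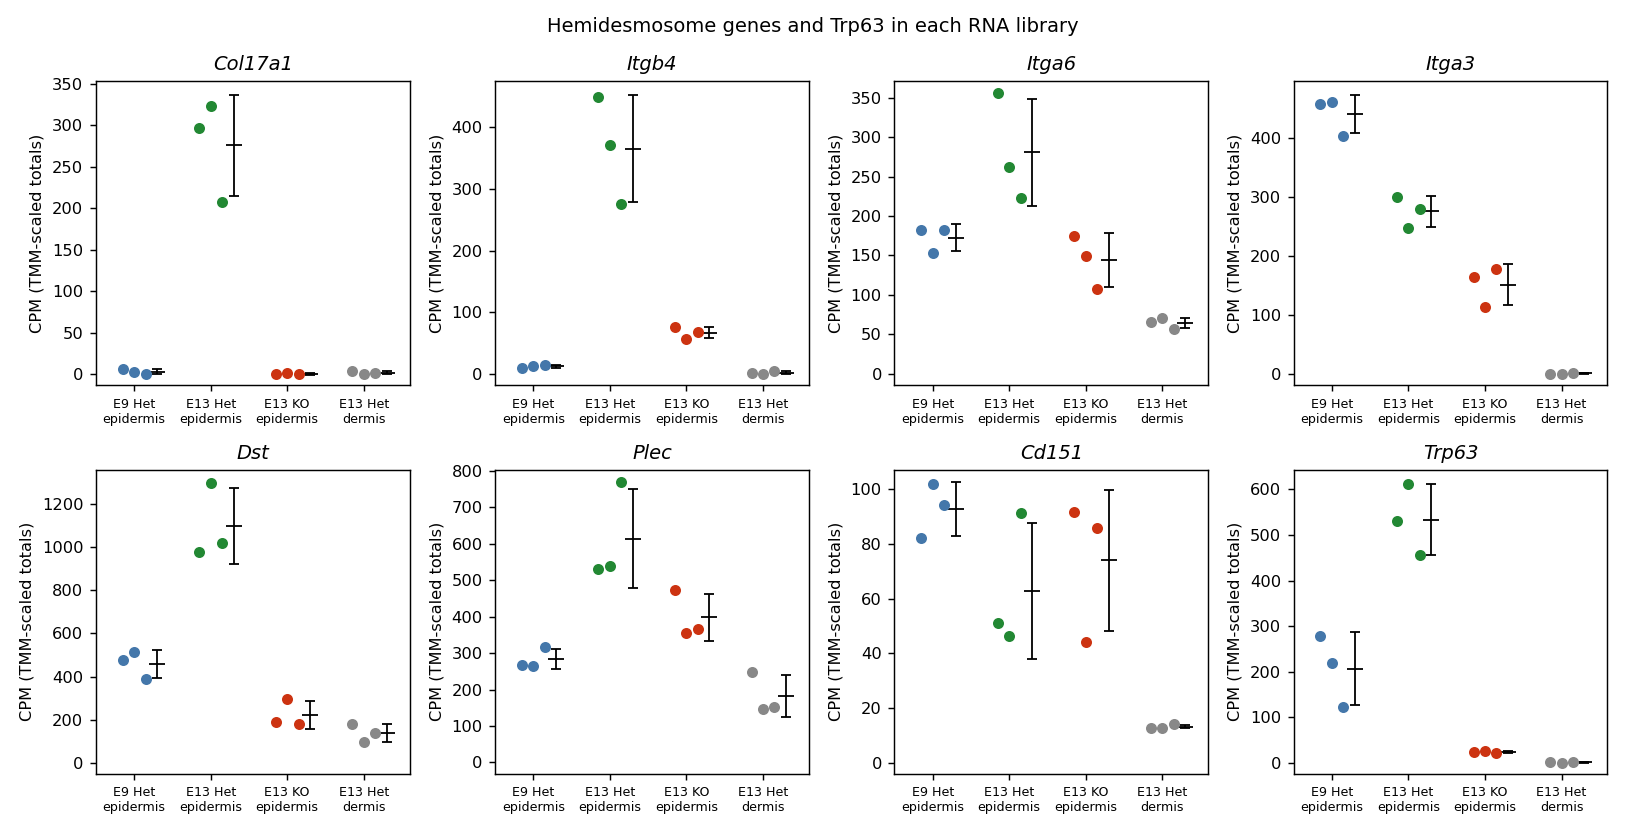
Level of each hemidesmosome gene and of Trp63 in the 12 RNA libraries, in CPM on TMM-scaled totals, by group. Each point is 1 library and the bar is the mean with its SD (n = 3). Each panel has its own axis, which starts slightly below 0. Col17a1, Itgb4, Itga6, Dst and Plec have their highest group mean in E13 Het epidermis. Itga3 and Cd151 have theirs in E9 Het epidermis, where Cd151 overlaps the other epidermal groups.

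Col17a1 encodes collagen XVII, the transmembrane collagen also known as BP180. It stood at 6.10, 2.84 and 0 CPM in E9 Het epidermis, at 297, 324 and 208 CPM in E13 Het, at 0, 1.34 and 0 CPM in KO and at 3.96, 0 and 1.51 CPM in dermis. Only the E13 Het libraries were high, and the E9, KO and dermal libraries overlapped one another. The E13 Het levels rest on 1287, 2615 and 1215 counts, and the only KO level above 0 rests on 10 counts in replicate 2. Over the 3 KO libraries together these 10 counts amount to 0.614 CPM of raw totals (exact Poisson 95% interval 0.294 to 1.13), and 3 counts, the limit that a count of 0 allows, correspond to 0.491 CPM in replicate 1 and 0.889 CPM in replicate 3. Such intervals and limits cover counting error only. Collagen XVII RNA fell by 8.94 ± 1.08 on the log2 scale in KO against Het, or 492-fold (edgeR adjusted p = 0.00416). Without KO replicate 2 every remaining KO count is 0, and the level was at least 934-fold lower than in Het, taking 3 counts over the remaining KO libraries; without KO replicate 1 the log2 change was -8.33. In Het epidermis Col17a1 rose 85.2-fold from E9 to E13 (log2 6.41 ± 0.90, edgeR adjusted p = 0.00369), and by 7.43 on the log2 scale without E9 replicate 1. KO at E13 against Het at E9 gave -2.53 ± 1.20, which did not pass (edgeR adjusted p = 0.28). With 1 library left out this value ran from -1.50 (without E9 replicate 1) to -7.22 (without KO replicate 2, where every KO count is 0 and the fitted value is no bound), and it did not pass in any of these fits (edgeR adjusted p = 0.0706 to 0.662). Het epidermis exceeded dermis by 7.16 ± 0.90 (edgeR adjusted p = 0.00124), and by 8.18 without dermis replicate 1. Col17a1 entered the epidermal fit through its E13 Het libraries, and in a fit of the E9 and KO libraries alone it did not pass the filter on low counts.

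Itgb4 encodes integrin β4, the subunit found only in α6β4, whose long cytoplasmic tail binds plectin. Its levels were 9.79, 13.3 and 14.3 CPM at E9, 449, 372 and 276 CPM in E13 Het, 75.6, 57.3 and 68.1 CPM in KO and 1.75, 0 and 4.36 CPM in dermis. The 4 groups stood apart in the order E13 Het, KO, E9 and dermis, with no overlap between neighbours. Itgb4 was the member with KO levels between those of E9 and E13 Het in every library and a call against each. KO against Het it fell 5.44-fold (log2 -2.44 ± 0.22, edgeR adjusted p = 2.26e-05), and from E9 to E13 in Het it rose 29.5-fold (4.88 ± 0.25, edgeR adjusted p = 3.25e-08). KO at E13 stood 5.42-fold above Het at E9 (2.44 ± 0.23, edgeR adjusted p = 1.78e-05). With the dermal libraries in the same fit, the calls of KO against Het and KO against E9 were lost (edgeR adjusted p = 0.115 and 0.057) at about the same log2 changes, -2.43 and 2.44. Het epidermis exceeded dermis by 7.29 ± 0.94 (edgeR adjusted p = 0.00138), and by 8.54 without dermis replicate 3. The gene (chr11:115974725-116008412 of GRCm38.p6) overlaps Galk1, which had 128 to 378 counts in the epidermal libraries. Whether reads were counted by strand is not stated in the sources used here, so those of the shared stretch could go to either gene or to neither.

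Itga6 encodes integrin α6, which pairs with β4 in hemidesmosomes and with β1 elsewhere. It was read at 183, 153 and 182 CPM at E9, at 356, 263 and 223 CPM in E13 Het, at 175, 150 and 108 CPM in KO and at 65.8, 70.3 and 56.9 CPM in dermis. E13 Het stood above E9, E9 and KO overlapped, and dermis was lowest, without overlap. The fall in KO against Het was 1.94-fold (log2 -0.96 ± 0.21, edgeR adjusted p = 0.0257), and the call was lost without Het replicate 1 (edgeR adjusted p = 0.11), KO replicate 2 (0.0685) or KO replicate 3 (0.0907), and with only the KO and Het libraries in the fit (0.086). From E9 to E13 the log2 change was 0.70 ± 0.21, which did not pass (edgeR adjusted p = 0.0561), whereas it did without E13 Het replicate 3 (0.0358), with no filter on low counts (0.025) and with DESeq2 (adjusted p = 0.0113). KO against E9 gave -0.26 ± 0.21 (edgeR adjusted p = 0.56). Het epidermis exceeded dermis 4.19-fold (2.07 ± 0.20, edgeR adjusted p = 0.000217).

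The 2 subunits of α6β4 were also compared as a ratio within each library, which needs no scaling between libraries. The log2 ratio of Itgb4 to Itga6 counts (1 added to each count) was -4.20, -3.50 and -3.65 at E9, 0.33, 0.50 and 0.30 in E13 Het, and -1.21, -1.38 and -0.66 in KO. The 3 groups did not overlap. KO differed from Het by -1.47 on the log2 scale (-1.08 ± 0.38 against 0.38 ± 0.11, SD, n = 3 each; two-sided exact permutation p = 0.1, the smallest that 3 against 3 allows, and 0.133 after adjustment over the 4 ratios compared). A ratio between genes of different length says nothing of the number of molecules, and only its change between libraries is read here.

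Dst encodes dystonin, whose epithelial isoform BPAG1e anchors keratin filaments at the hemidesmosome, while other isoforms from the same long gene serve nerve and muscle. Its levels were 475, 513 and 388 CPM at E9, 979.6, 1301 and 1019 CPM in E13 Het, 189, 295 and 179 CPM in KO and 179.8, 97.1 and 136 CPM in dermis. E13 Het stood above E9 and E9 above KO without overlap, and KO overlapped dermis. Unlike Itgb4, Dst in KO lay below its E9 level. It fell 4.96-fold in KO against Het (log2 -2.31 ± 0.19, edgeR adjusted p = 1.02e-05) and rose 2.39-fold from E9 to E13 (1.26 ± 0.19, edgeR adjusted p = 0.000715). KO was 2.08-fold below E9 (-1.05 ± 0.19, edgeR adjusted p = 0.00293), and Het epidermis was 7.81-fold above dermis (2.97 ± 0.24, edgeR adjusted p = 9.54e-05). None of the alternatives run, including each left-out library, ended a call of Dst. The counts pool all isoforms of a gene that spans chr1:33907888-34308662 of GRCm38.p6, and the printed windows are 2 of its starts, so the change cannot be given to the epithelial isoform. Bend6, which overlaps it, had 78 counts or fewer in each library.

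Plec encodes plectin, a cytolinker of many cell types that bridges integrin β4 and keratin. It was found at 268, 266 and 316 CPM at E9, at 531, 540.1 and 771 CPM in E13 Het, at 473, 356 and 368 CPM in KO and at 249, 146 and 152 CPM in dermis. The order was E13 Het, KO, E9 and dermis, with no overlap between neighbours. Plectin RNA rose 2.17-fold from E9 to E13 in Het (log2 1.11 ± 0.17, edgeR adjusted p = 0.000918) and was 3.30-fold higher in Het epidermis than in dermis (1.72 ± 0.24, edgeR adjusted p = 0.00117). KO against Het gave -0.62 ± 0.17, which did not pass (edgeR adjusted p = 0.0884), although it passed with DESeq2 (adjusted p = 0.00877) and with no filter on low counts (edgeR adjusted p = 0.028). KO against E9 gave 0.50 ± 0.17 (edgeR adjusted p = 0.0976; DESeq2 adjusted p = 0.0344).

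The 2 plakins were compared in the same way. The log2 ratio of Dst to Plec counts was 0.83, 0.95 and 0.30 at E9, 0.88, 1.27 and 0.40 in E13 Het, -1.32, -0.27 and -1.04 in KO and -0.47, -0.58 and -0.16 in dermis. Each KO library lay below every E9 and E13 Het library. The dermal libraries, which are of another library type, overlapped those of KO. The KO minus Het difference was -1.73 (-0.88 ± 0.54 against 0.85 ± 0.43, SD, n = 3 each; two-sided exact permutation p = 0.1, the smallest possible, adjusted p = 0.133).

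Itga3 encodes integrin α3 of the laminin receptor α3β1. At E9 it read 458, 460.0 and 403 CPM, above every library of the other groups. It read 300.3, 247 and 279 CPM in E13 Het, 164, 113 and 178 CPM in KO and 0.93, 0 and 2.56 CPM in dermis. The 4 groups fell in that order with no overlap. From E9 to E13 in Het it fell 1.60-fold (log2 -0.68 ± 0.18, edgeR adjusted p = 0.03), a call lost without any 1 of the 3 E9 libraries or without E13 Het replicate 2 (edgeR adjusted p = 0.0504 to 0.118). KO against Het it fell 1.81-fold (-0.85 ± 0.18, edgeR adjusted p = 0.0195), a call lost without Het replicate 1 (0.0697) or KO replicate 2 (0.0646), or with only the KO and Het libraries in the fit (0.0767). KO at E13 was 2.89-fold below Het at E9 (-1.53 ± 0.18, edgeR adjusted p = 0.000104). With the dermal libraries in the fit, where Itga3 was at 2.56 CPM or less, these 3 calls were lost (edgeR adjusted p = 0.507, 0.591 and 0.1) at log2 changes of -0.69, -0.84 and -1.53. Het epidermis exceeded dermis 198-fold (7.63 ± 0.84, edgeR adjusted p = 0.000718), and by 8.98 on the log2 scale without dermis replicate 3.

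Cd151 encodes the tetraspanin that binds the α3 and α6 integrins. Its levels were 82.3, 102 and 94.3 CPM at E9, 50.9, 46.3 and 91.4 CPM in E13 Het, 91.8, 44.3 and 85.8 CPM in KO and 12.8, 12.8 and 14.0 CPM in dermis. The epidermal groups overlapped, with E13 Het replicate 3 and KO replicates 1 and 3 near the E9 levels, and all epidermal libraries lay above the dermal ones. No epidermal comparison of Cd151 passed: KO against Het gave 0.24 ± 0.32 (edgeR adjusted p = 0.888), E13 against E9 -0.56 ± 0.32 (0.372) and KO against E9 -0.32 ± 0.31 (0.652). With 1 library left out these values ran from 0.046 (without Het replicate 2) to 0.62 (without Het replicate 3), from -0.38 (without Het replicate 2) to -0.96 (without Het replicate 3) and from -0.061 (without KO replicate 2) to -0.52 (without KO replicate 1), and none passed. Without the libraries of fewest genes detected in the compared groups, Het replicate 1 and KO replicate 3, the KO against Het value turned to -0.035 (edgeR adjusted p = 1). Het epidermis exceeded dermis 4.59-fold (2.20 ± 0.34, edgeR adjusted p = 0.00167). The SD of 24.8 CPM around 62.9 CPM in E13 Het limits what a comparison of Cd151 could detect.

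**Figure D2:**
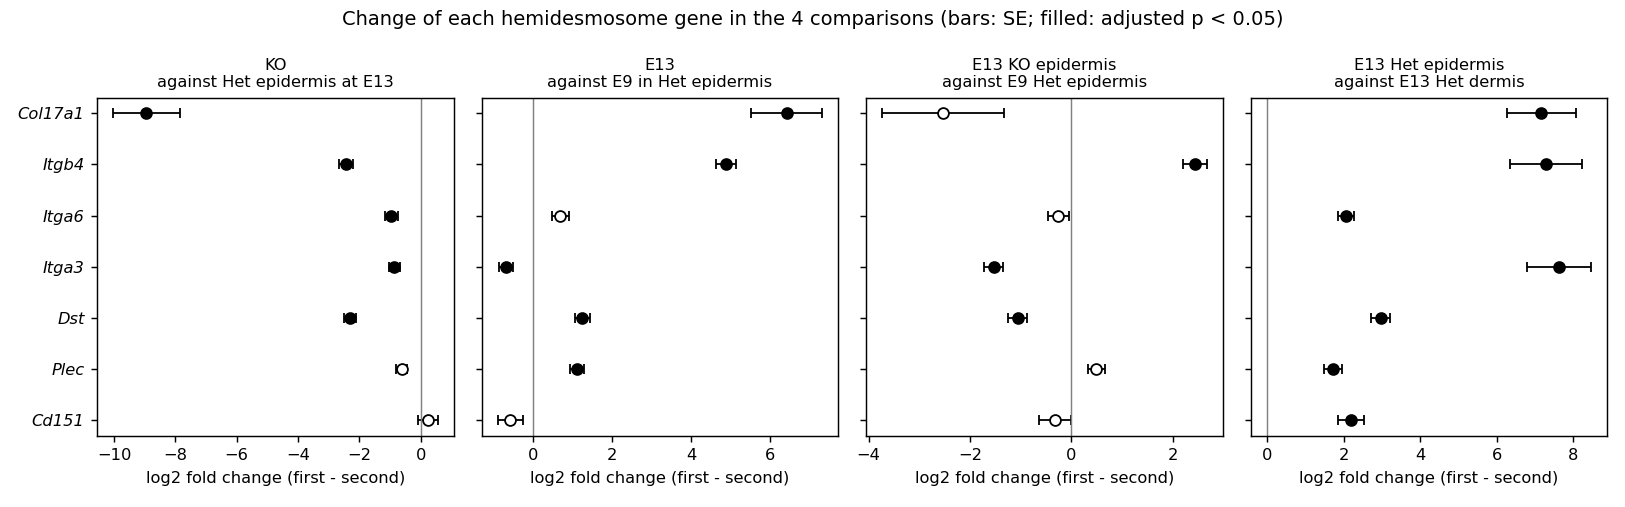
Log2 fold change ± standard error of the 7 hemidesmosome genes in the 4 comparisons, from edgeR's quasi-likelihood fits; filled points have an adjusted p under 0.05 and open points do not. KO against Het at E13 has 5 filled points, all below 0, and Het epidermis against dermis has 7, all above 0.

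Read by comparison, Col17a1, Itgb4, Dst and Plec rose and Itga3 fell from E9 to E13 in Het epidermis. These 5 of 7 calls stand beside 7.29% of all genes called, 4.77% higher and 2.53% lower, and the median log2 change was 1.11 against -0.00 over all genes. For 6 of the 7 the libraries of E9 and E13 lay apart, 5 higher and 1 lower, beside 29% of all genes, 15.2% higher and 13.8% lower. In KO at E13 against Het at E9, 3 of 7 were called, Itgb4 higher and Itga3 and Dst lower, beside 7.67% of all genes called, 4.62% higher and 3.05% lower, with a median of -0.32 against 0.01. Libraries did not overlap for Itgb4 and Plec, both higher, and for Itga3 and Dst, both lower, beside 32% of all genes, 16.4% higher and 15.6% lower. These comparisons share libraries with KO against Het, so the values of a gene across them are not independent. In Het epidermis against dermis, all 7 were higher and did not overlap, beside 34.7% of all genes called, 16.5% higher and 18.2% lower, and 55.6% without overlap, 25.1% higher and 30.5% lower. The median there was 2.97 against -0.13 over all genes. With raw library totals the median over all genes in that comparison moved to 0.30 and the higher share of called genes from 47.5% to 68.7%, and the 7 remained called.

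**Figure D3:**
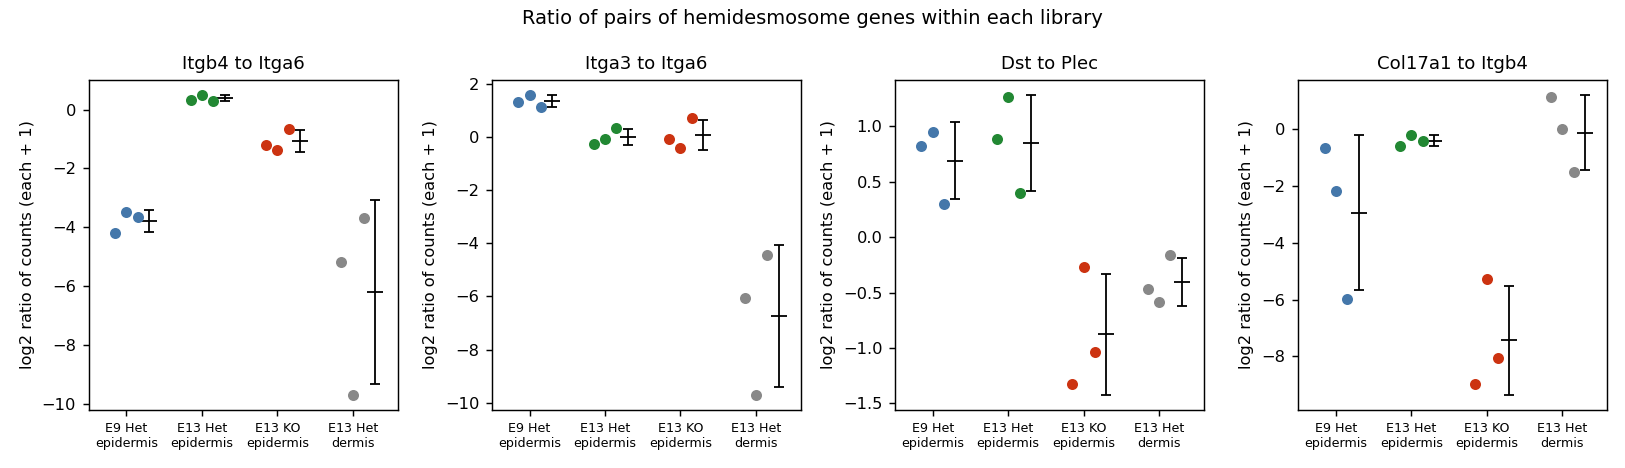
Log2 ratio of counts (1 added) for 4 pairs of hemidesmosome genes within each library, by group, with the mean and SD of 3 libraries; each point is 1 library. KO libraries lie below E13 Het libraries for Itgb4 to Itga6, Dst to Plec and Col17a1 to Itgb4, and overlap them for Itga3 to Itga6.

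The remaining 2 within-library ratios set Col17a1 against Itgb4 and Itga3 against Itga6. Col17a1 to Itgb4 was -0.60, -0.20 and -0.41 in E13 Het and -8.97, -5.29 and -8.04 in KO, a difference of -7.03 (-7.43 ± 1.92 against -0.40 ± 0.20, SD, n = 3 each; two-sided exact permutation p = 0.1, adjusted p = 0.133). Since 2 KO libraries have no Col17a1 count, this value depends on the number added to each count, and was -7.72 with 0.5 and -5.35 with 5. Each KO library lay below every E13 Het library in this ratio. At E9, where Col17a1 had 59 counts in all, the ratio was -0.67, -2.16 and -5.98, and replicate 4 lay below KO replicate 2. The log2 ratio of Itga3 to Itga6, the α chains of the 2 laminin-binding integrins, was -0.25, -0.09 and 0.32 in E13 Het and -0.09, -0.41 and 0.72 in KO, which overlapped (difference 0.08, two-sided exact permutation p = 0.8, adjusted p = 0.8, n = 3 each). At E9 it was 1.32, 1.59 and 1.15, above every E13 library.

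Around the hemidesmosome, a list of 30 genes of its ligands, filaments and relatives was counted in the same fits. The list was drawn up with earlier results of these data known, so its counts are descriptions. In KO against Het, 6 of the 30 fell and none rose, beside 2.2% of all genes called, 1.36% lower and 0.835% higher. The median log2 change was -0.60 against 0.03 over all genes. In the Het course from E9 to E13, 10 rose and 1 fell, beside 7.29% of all genes (median 0.75 against -0.00). In KO against E9, 5 were higher and 4 lower, beside 7.67% (median 0.14 against 0.01). In Het epidermis against dermis, 18 were higher and 6 lower, beside 34.7% (median 1.88 against -0.13). Up to 2 genes per role, those of smallest adjusted p in KO against Het, are named here. Laminin α5 (Lama5) fell 1.74-fold (adjusted p = 0.0052), while Lama3, the α3 chain of laminin-332 to which α6β4 binds, stood at 337 ± 51.0 CPM in Het and 68.3 ± 29.2 CPM in KO (SD, n = 3 each) with an edgeR adjusted p of 0.0678. Collagen VII (Col7a1), the anchoring fibril on the dermal side, fell from 101 ± 34.4 to 12.7 ± 3.29 CPM (SD, n = 3 each; edgeR adjusted p = 0.00108), and Col4a1 did not pass (-0.69 ± 0.18, adjusted p = 0.0766). Keratin 5 (Krt5), whose filaments the plakins hold, fell from 1238 ± 178 to 34.4 ± 13.1 CPM (SD, n = 3 each; edgeR adjusted p = 9.36e-06), and its partner Krt14 gave -5.64 ± 1.32 without passing (edgeR adjusted p = 0.121).

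Among relatives of the members, the desmosomal plakin Dsp (desmoplakin) fell 3.36-fold (edgeR adjusted p = 1.53e-05), and Ppl (periplakin) did not pass (-0.90 ± 0.31, adjusted p = 0.246). Fermt1, the integrin activator kindlin-1, fell from 166 ± 22.2 to 26.7 ± 3.19 CPM (SD, n = 3 each; edgeR adjusted p = 7.48e-06). Itga2, the α chain of a collagen receptor, fell by 5.31 ± 1.26 on the log2 scale (edgeR adjusted p = 0.0404). The tetraspanins Cd81 (0.68 ± 0.34, adjusted p = 0.485) and Cd9 (0.13 ± 0.38, 0.958) did not pass in KO against Het. Neither did Adam10 (0.39 ± 0.22, 0.574) or Adam9 (0.41 ± 0.25, 0.611), of the sheddases that can release collagen XVII from the cell surface. Of the members' fellow tetraspanins, Cd9 did pass from E9 to E13 in Het (log2 2.34 ± 0.40, edgeR adjusted p = 0.00288), where Cd151 did not; the difference between them was not tested.

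**Figure D4:**
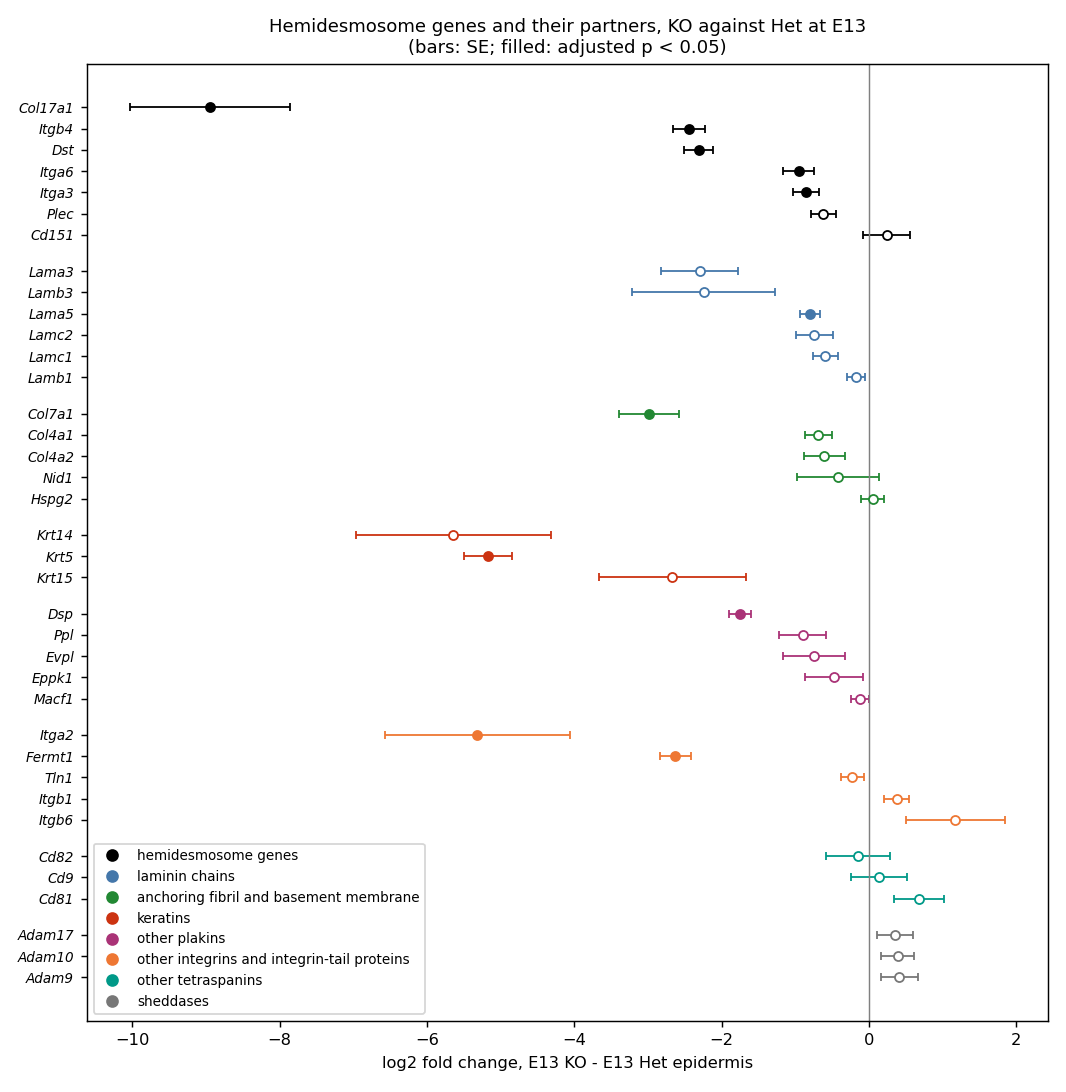
Log2 fold change ± standard error in KO against Het epidermis at E13 for the 7 hemidesmosome genes and the 30 related genes, grouped by role; filled points have an edgeR adjusted p under 0.05. Filled points are 5 of the 7 members and 6 of the 30 related genes, all below 0.

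Across the 12 libraries each member was compared with the 11113 genes of at least 10 CPM on average in 1 group, by Pearson's r of log2(CPM + 1). The 2 most alike to Col17a1 were Cdh13 (r = 0.96) and Nr2e3 (0.96), to Itgb4 Rbbp8 (0.97) and Zfpm1 (0.97), and to Itga6 Rbm15b (0.97) and Fam83b (0.97). To Itga3 they were Ctnnal1 (0.99) and Card10 (0.99), to Dst Fgfr2 (0.98) and Ttc3 (0.97), to Plec Ddr1 (0.96) and Nckap5 (0.95), and to Cd151 Slc2a1 (0.99) and Krt7 (0.97). The match of Dst with Fgfr2 shows in the group means, which for Fgfr2 were 442 CPM at E9, 936 CPM in E13 Het, 186 CPM in KO and 125 CPM in dermis. Among the members themselves, the closest pair was Itga3 and Cd151 (r = 0.95), followed by Itgb4 and Plec (0.92), and the least alike pair was Col17a1 and Cd151 (0.12). These 12 points include the dermal libraries, which share a sort, a library type and levels of all 7 genes below those of E13 Het epidermis. The values are descriptions.

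Markers of other cell types were read in the same libraries, where fewer cells of a type and less RNA per cell cannot be told apart. Markers of basal epidermis (Krt5, Krt14, Krt15 and Cdh3) summed to between 2631 and 3026 CPM in E13 Het, 354 and 540.0 CPM in KO, 340 and 533 CPM at E9 and 35.8 and 60.5 CPM in dermis, each with 4 of 4 genes counted. Outside E13 Het, Cdh3 made up most of these sums. Its means were 516 CPM in E13 Het, 353 CPM in KO, 419 CPM at E9 and 43.5 CPM in dermis. Krt5, Krt14 and Krt15 had means of 1238, 771 and 246 CPM in E13 Het and of at most 38.6 CPM elsewhere. Markers of simple epithelium (Krt8, Krt18, Krt19, Epcam and Cldn6; 5 of 5 counted in each epidermal group) summed to 489, 305 and 1727 CPM in E13 Het, 1988 to 2745 CPM in KO and 1261 to 1659 CPM at E9. On average Krt8, Krt18, Epcam and Cldn6 were higher in KO than in E13 Het. The mean of Krt19 was lower, at 68.9 CPM in KO beside 152 CPM in E13 Het and 128 CPM at E9. Its libraries overlapped, with 86.2, 24.3 and 345 CPM in E13 Het and 85.5, 83.1 and 38.1 CPM in KO. The Het library with 1727 CPM, replicate 3, had the lowest Col17a1, Itgb4 and Itga6 and the highest Plec and Cd151 of its group. Without it, Col17a1, Itgb4, Dst, Itga6 and Itga3 were still the members called in KO against Het. Dermal mesenchyme markers summed to 289, 1302 and 265 CPM in E13 Het, 976 to 2025 CPM in KO, 180.1 to 241 CPM at E9 and 30182 to 41980 CPM in dermis, with 10 of 10 counted at E13 and Dcn, Lum, Twist2 and Dpt at 0 at E9. Col3a1 was the largest part of the KO sums, at 590, 921 and 849 CPM beside 77.2, 380 and 75.8 CPM in E13 Het. On average Dcn, Twist2 and Dpt were lower in KO than in E13 Het, and the other genes of that list were higher. The KO and Het libraries overlapped for Dcn, Twist2, Dpt and Lum. Means of these 2 groups were at most 3.27 CPM for Twist2, 0.66 CPM for Dpt and 9.37 CPM for Lum. Neuron markers summed to between 1.84 and 28.2 CPM in E13 Het and between 50.3 and 155 CPM in KO (7 of 7 counted). Map2 made up most of the KO sums, at 76.0, 122 and 44.8 CPM. On average Tubb3, Elavl4, Stmn2 and Nefl were also higher in KO than in Het, and Snap25 and Elavl3 were lower. Elavl4, Snap25 and Elavl3 read 2.94 CPM or less in each of these libraries. Schwann and glia markers summed to 129 to 190 CPM in E13 Het and 230 to 262 CPM in KO (5 of 5 counted). Erbb3 made up nearly all of the latter sums in both groups, with Sox10 at 2.41 CPM or less. Markers of endothelium (6 of 6 counted in each) summed to at most 26.6 CPM in E13 Het and 20.1 CPM in KO, and those of skeletal muscle, melanoblasts and macrophages each to at most 45.2 CPM in E13 Het and 40.5 CPM in KO. At E9 the neuron markers summed to between 30.6 and 79.4 CPM, the melanoblast markers to between 21.1 and 57.9 CPM, those of endothelium to at most 14.5 CPM (Cdh5 and Cldn5 at 0) and those of macrophages to at most 8.97 CPM (Ptprc at 0). Skeletal muscle markers read 36.7, 32.1 and 253 CPM at E9, with replicate 4 apart through Ttn (172 CPM) and Actc1 (46.4 CPM), and Myod1 and Myog at 0 in all 3. Without E9 replicate 4, Dst rose by 1.15 and Plec by 1.20 on the log2 scale from E9 to E13 (edgeR adjusted p = 0.00677 and 0.00338), and of the members Itga3 lost its call. The part of these cell types in the changes of the hemidesmosome genes was not tested.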

How the data were processed

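RNA libraries of 9 epidermal and 3 dermal samples were analysed; the ATAC and ChIP libraries were not used here. Each deposited file holds whole-number counts of reads per gene symbol that the authors made with HTSeq, per the submitters' processing notes, which also list TopHat2, Bowtie2 and the build mm10. The 5 HTSeq summary lines were left out. They took 20.2% to 21.6% of the entries in the dermal files and 48.8% to 63.8% in the epidermal files. Files were grouped by the labels' genotype, age and tissue.

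The counts were tested with edgeR 4.0.16 in R 4.3.3 (its robust quasi-likelihood F test, after filterByExpr and with TMM factors). The 3 epidermal comparisons came from 1 fit of 9 libraries (6 residual degrees of freedom, 13052 genes) and the comparison with dermis from 6 libraries (4 degrees of freedom, 12975 genes). All 7 members passed the filter in both. Standard errors were obtained by dividing the size of a log2 fold change by the root of its F. Ratios within libraries were compared with two-sided exact permutation tests. Replicates differed by more than sampling noise (chi-square per degree of freedom 15.4 to 227). The procedure was tested on simulated data. Coordinates and promoter windows come from RefSeq tables of GRCm38.p6.

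The members, the lists of related and marker genes and the tests were chosen with earlier results of these data known. Genes named are the members, Trp63, up to 2 related genes per role with the smallest adjusted p in KO against Het, and the 2 genes of highest r with each member. Alternatives were DESeq2 1.42.0, RLE size factors, raw totals, other filters, other sets of libraries in the fit, totals without Rn45s and Lars2, a replicate block, other prior counts and leaving out each replicate; leaving out the library of fewest genes detected in each compared group was added after seeing the data.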

Additional observations from a re-analysis of the deposited data

How the results depend on the processing

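Of 440 recomputed log2 fold changes of the 7 genes, 414 kept their direction and side of the threshold, 18 kept the direction and lost the call, 7 gained a call and 1 changed sign. That 1 was Cd151 in KO against Het, at -0.035 without the library of fewest genes detected in each group, an alternative added after seeing the data; in it Itga6 gave -0.60 (edgeR adjusted p = 0.18). The count of members called in KO against Het was 3 with all 12 libraries in 1 fit (Itgb4 and Itga3 lost) and 3 with only the 2 groups compared (Itga6 and Itga3 lost), and 3 to 5 with 1 replicate left out. In KO against E9 it was 1 with all 12 libraries in 1 fit. Related genes called with DESeq2 numbered 12 in KO against Het and 14 in KO against E9. The KO minus Het difference in the Itga3 to Itga6 log2 ratio ran from -0.24 (without KO replicate 3) through -0.042 (without Het replicate 1), both of the opposite sign, to 0.32 (without KO replicate 2). The cause of these shifts was not tested.

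Over all genes, DESeq2 called 824 in place of 287 in KO against Het, 1997 in place of 952 from E9 to E13 and 2172 in place of 1001 in KO against E9. With 1 replicate left out the counts ran from 182 (without KO replicate 1) to 348, from 569 (without E9 replicate 2) and 597 (without E9 replicate 1) to 812, from 557 (without E9 replicate 2), 592 (without KO replicate 1) and 606 (without E9 replicate 1) to 815, and in epidermis against dermis from 2934 (without dermis replicate 3) to 5269 beside 4504. Shared replicate numbers were not treated as pairs in the main fits. Deviations of same-numbered KO and Het libraries correlated at -0.00, 0.21 and -0.02, and those of different numbers at -0.10 to 0.07. Between Het epidermis and dermis the values were 0.046, 0.022 and 0.047 for the same number and -0.039 to 0.003 for different numbers. These values do not settle whether the numbers pair the samples. With the number as a replicate block, 5, 6, 3 and 7 members were called in the 4 comparisons, Itga6 gaining a call from E9 to E13 (log2 0.89, edgeR adjusted p = 0.0169), and the counts over all genes were 576 from E9 to E13 and 540 in KO against E9. For Col17a1 in KO, 10 counts in all set the precision, and permutation of 3 against 3 libraries cannot go below p = 0.1.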
